A study of Mus musculus with 10 samples.

Results

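The genes described here are 10 markers and effectors of the intestinal tuft cell, chosen by name: Pou2f3, Dclk1, Sucnr1, Gnat3, Trpm5, Il25, Il17rb, Alox5, Ptgs1 and Hpgds. They are 10 of the 42989 genes counted in distal ileum of 10 mice, and 9 of them were abundant enough to test, the exception being Il25. The TDCA group was 5 wild-type C57BL/6J males with diet-induced obesity, gavaged with TDCA (taurodeoxycholic acid, a bile acid that gut bacteria help to form) at 10 mg/kg body weight. The water group was 5 males of the same strain, genotype and obese state, gavaged with an equal volume of water. Gavage began at 10 weeks of age and lasted 4 weeks in both groups, so all 10 mice were obese and all were gavaged. RNA came from whole frozen ileum, about 20 mg per mouse, which holds muscle, nerve and immune cells as well as epithelium. Tuft cells are rare in such tissue, and fewer tuft cells cannot be told apart from less RNA per tuft cell.

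Tuft cells are chemosensory cells of the gut epithelium. They carry a signalling cascade shared with taste cells, in which a receptor acts through a G protein to open the cation channel Trpm5. In mouse small intestine they sense succinate from microbes through Sucnr1 and release the cytokine Il25, which drives group 2 innate lymphoid cells to make Il13, and Il13 in turn biases epithelial stem cells towards tuft and goblet fates. They also make prostaglandins and cysteinyl leukotrienes, and depend on the transcription factor Pou2f3.

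Pou2f3 belongs to the POU family, whose members bind the octamer, written ATGCAAAT on one strand and ATTTGCAT on the other. The RefSeq promoter windows (GRCm38.p6, 250 bases before to 50 after a gene's start) held 8 of the 10 genes, and 2 of these, Hpgds and Sucnr1, carried the octamer. Of 39 other tuft cell genes with a window, 4 carried it, and of all 27025 genes with a window 1.97% did so on either strand (1.74% of all 32851 windows). Allowing any base at the fifth position (ATGCNAAT, a pattern that includes the octamer) gave 3.60% of all genes, 5 of the 39 other tuft cell genes and the same count of 2 here. The match is a description of letters, not evidence of binding. The stretches around both octamers are shown with the octamer in capitals, each 5′ to 3′ on the gene's own strand: Hpgds at chr6:65144871-65144930 (minus strand), where the octamer starts 174 bases before the gene's start, and Sucnr1 at chr3:60081795-60081854 (plus strand), where it starts 48 bases before.
Hpgds: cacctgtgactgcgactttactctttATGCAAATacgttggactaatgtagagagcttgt
Sucnr1: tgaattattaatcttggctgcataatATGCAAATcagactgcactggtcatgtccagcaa

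The 100 bases before the start of Trpm5 (chr7:143094643-143094742, minus strand) and Gnat3 (chr5:17962470-17962569, plus strand) are shown because these 2 genes of the taste cascade were among the most closely correlated across mice (r = 0.806, permutation test, adjusted p = 0.139). Neither stretch holds the octamer, which says only that these letters are not in these windows.
Trpm5: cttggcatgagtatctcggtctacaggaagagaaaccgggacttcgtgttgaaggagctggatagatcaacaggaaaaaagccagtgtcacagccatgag
Gnat3: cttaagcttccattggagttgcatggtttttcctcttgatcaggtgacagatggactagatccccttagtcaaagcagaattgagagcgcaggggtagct

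Libraries held between 27349003 and 44342245 reads on genes, and their ranks correlated with Spearman's rho of 0.886 to 0.940 between any pair. Libraries differed in how much non-epithelial RNA they carried. A smooth muscle score (the mean over 10 fixed marker genes of the centred log2 normalized count) averaged 0.34 ± 0.35 in TDCA ileum and −0.34 ± 0.67 in water ileum (SD, n = 5 each; exact permutation p = 0.0873, adjusted over 7 cell type scores 0.204). The epithelial score averaged −0.14 ± 0.28 in TDCA ileum and 0.14 ± 0.12 in water ileum (SD, n = 5 each; exact permutation p = 0.0397, adjusted 0.204). TDCA 5 had an epithelial score of −0.62 and the other 4 TDCA libraries lay between −0.09 and 0.09. All 10 smooth muscle genes had a positive fold change, with a median log2 fold change of 0.68, and all 10 epithelial genes a negative one, with a median of −0.28, although none passed the adjusted test. Summed epithelial markers were abundant in every library, at 172552 to 332247 normalized counts in TDCA libraries and 263041 to 341621 in water libraries. Water 1 had the lowest smooth muscle score of the 10 libraries (−1.19) and TDCA 5 the highest (0.83). The B cell score varied more widely, from −2.29 in TDCA 3 to 3.08 in water 5. It averaged 0.13 ± 1.58 in TDCA ileum and −0.13 ± 2.03 in water ileum (SD, n = 5 each).

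None of the 9 tuft genes tested passed the test for a difference between TDCA and water ileum (limma on log2(normalized count + 1), Benjamini-Hochberg adjusted p under 0.05). The same test called 0 of 17507 genes in all, or 0%, so the tuft genes did not stand apart from the background in this. At an unadjusted p under 0.05, 0 of the 9 passed in either direction, while 5.95% of all genes tested did so higher in TDCA ileum and 5.01% lower. The values of the groups overlapped for all 10 tuft genes. Of all 17507 genes tested, 245 had groups without overlap, or 1.40%. Fold changes of the tuft genes tested were positive for 7 genes and negative for 2, with a median log2 fold change of 0.06 beside −0.01 for all genes tested. The median of the tuft genes was −0.05 to 0.15 when 1 mouse was left out, and 0.21 with the smooth muscle score in the fit. The authors' deposited table gives an adjusted p for 6 of the 10, between 0.413 for Hpgds and 0.969 for Il17rb, while it calls 25 of 13800 genes, or 0.181%.

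**Figure D1:**
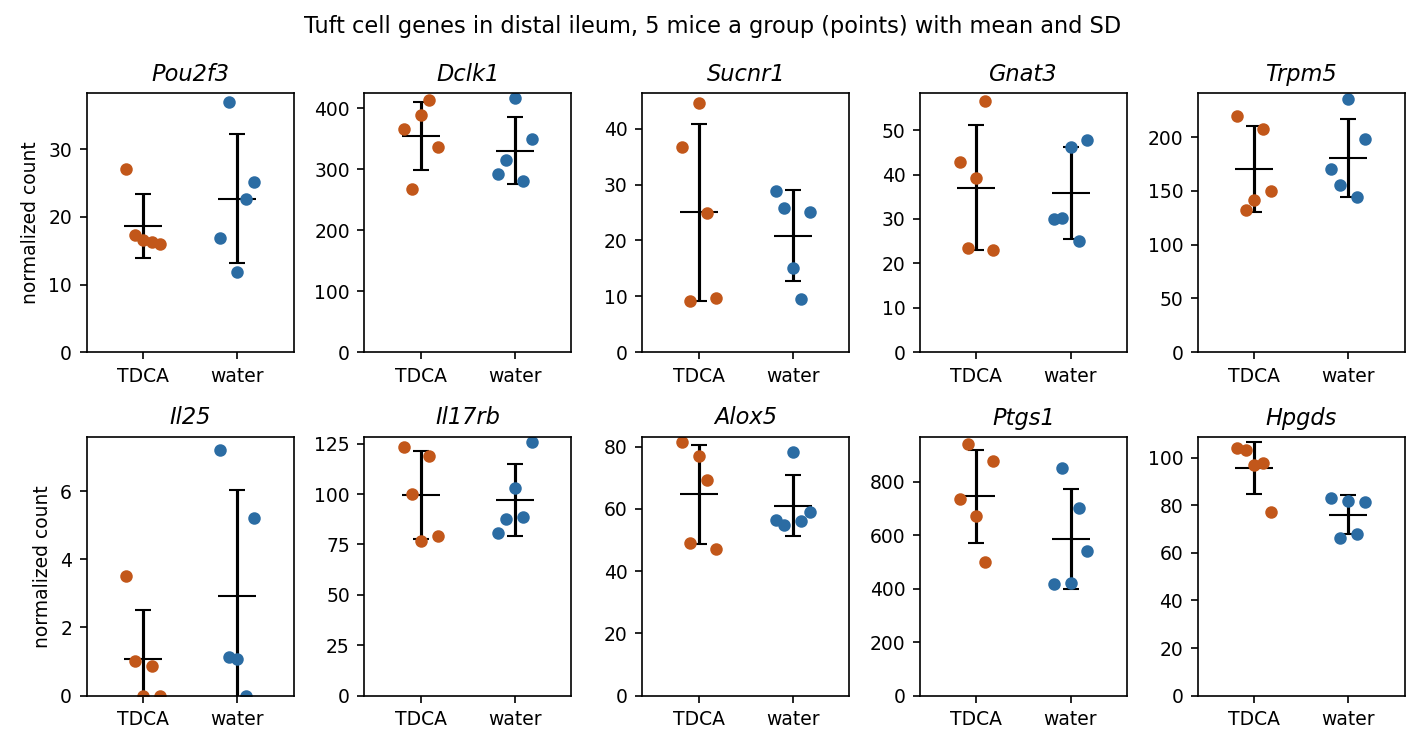
Normalized count of each of the 10 tuft genes in every library, TDCA left and water right; points are mice and the bar is the mean with its SD (n = 5 each; the SD bar of Il25 is cut at 0). The points of both groups overlap in all 10 panels, and Hpgds comes closest to a separation, with 4 TDCA mice above every water mouse.

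Pou2f3, the transcription factor required for tuft cells to form, had 27.1, 17.3, 16.6, 16.3 and 16.0 normalized counts in TDCA mice 1 to 5, against 16.8, 37.0, 11.8, 22.7 and 25.2 in water mice 1 to 5. The highest and the lowest value of all 10 mice were both in the water group, and 4 of the 5 TDCA mice lay between 16.0 and 17.3. The means were 18.7 ± 4.76 in TDCA ileum and 22.7 ± 9.53 in water ileum (SD, n = 5 each). The log2 fold change was −0.20, with a 95% interval of −0.87 to 0.47 (limma adjusted p = 0.821). It was −0.0091 without water 2, −0.40 without water 3 and −0.58 with the smooth muscle score in the fit.

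Dclk1, a microtubule-associated kinase used as the standard tuft cell marker in mouse intestine and also made by neurons, had 366, 267, 389, 413 and 336 normalized counts in TDCA mice 1 to 5. Water mice 1 to 5 had 292, 315, 417, 281 and 349. The groups covered nearly the same span, with the lowest value in TDCA 2 and the highest in water 3. Means were 354 ± 56.3 in TDCA ileum and 331 ± 54.7 in water ileum (SD, n = 5 each). This was the steadiest of the 10 genes across mice, with the highest of the 10 libraries 1.56 times the lowest, and its log2 fold change was 0.10 (95% interval −0.22 to 0.42, limma adjusted p = 0.817).

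Sucnr1, the succinate receptor at the head of the circuit, had 36.8, 9.18, 44.5, 24.9 and 9.76 normalized counts in TDCA mice 1 to 5, and 28.8, 25.8, 15.0, 9.56 and 25.2 in water mice 1 to 5. Both groups held mice near 9 and mice above 25, and the 2 highest values were in TDCA mice. The counts rested on 8 to 51 reads per library, and the highest library was 4.85 times the lowest. The log2 fold change of 0.09 therefore had a wide 95% interval, −0.92 to 1.11 (limma adjusted p = 0.952).

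Gnat3, or gustducin, the G protein alpha subunit of taste cells, had 42.9, 23.5, 39.3, 56.6 and 23.1 normalized counts in TDCA mice 1 to 5, and 30.0, 30.3, 46.2, 25.1 and 47.7 in water mice 1 to 5. The TDCA mice fell on both sides of the water mice, with the 2 lowest values and the highest one. Means were 37.1 ± 14.1 in TDCA ileum and 35.9 ± 10.4 in water ileum (SD, n = 5 each), a log2 fold change of 0.01 (95% interval −0.63 to 0.65, limma adjusted p = 0.994).

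Trpm5, the channel at the end of the taste cascade, had 219.7, 133, 142, 207 and 149.9 normalized counts in TDCA mice 1 to 5, and 171, 156, 235, 145 and 198 in water mice 1 to 5. TDCA 2 was lowest and water 3 highest. Means were 170.2 ± 40.2 in TDCA ileum and 181 ± 36.4 in water ileum (SD, n = 5 each), with a log2 fold change of −0.10 (95% interval −0.50 to 0.31, limma adjusted p = 0.866). Trpm5, Gnat3 and Il17rb had the same 4 libraries as their highest: TDCA 1, TDCA 4, water 3 and water 5.

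Il25, the alarmin cytokine of tuft cells, was close to the limit of detection. It had 4, 1, 0, 1 and 0 reads in TDCA mice 1 to 5, and 6, 1, 1, 0 and 6 reads in water mice 1 to 5. These 20 reads were 6 in TDCA and 14 in water libraries, and 3 mice, TDCA 3, TDCA 5 and water 4, had none. A count of 0 allows up to 3 reads, which is 2.62, 2.66 and 3.59 normalized counts in those libraries, for counting error only. The normalized counts averaged 1.08 ± 1.44 in TDCA ileum and 2.92 ± 3.11 in water ileum (SD, n = 5 each), and an exact permutation test on the log2 scale, two-sided, gave p = 0.270. A difference in Il25 was not detectable at this depth.

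Il17rb, the Il25 receptor subunit, is present on tuft cells themselves and on group 2 innate lymphoid cells. It had 123, 99.99, 76.9, 119 and 79.0 normalized counts in TDCA mice 1 to 5, and 80.5, 87.5, 103, 88.4 and 126 in water mice 1 to 5. High and low mice occurred in both groups. Means were 99.7 ± 21.7 in TDCA ileum and 97.1 ± 18.1 in water ileum (SD, n = 5 each), a log2 fold change of 0.03 (95% interval −0.38 to 0.44, limma adjusted p = 0.965).

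**Figure D2:**
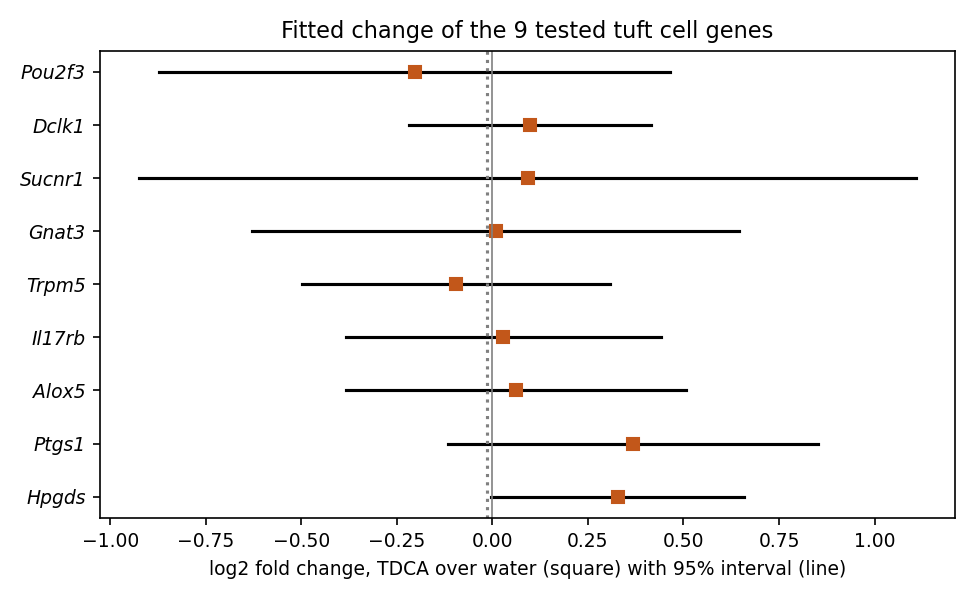
Log2 fold change (TDCA over water, on log2(normalized count + 1)) of the 9 tuft genes tested, with 95% intervals from limma; the dotted line is the median of all genes tested (−0.01). Every interval includes 0, the widest being that of Sucnr1 (−0.92 to 1.11), and Ptgs1 and Hpgds lie farthest to the right.

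Alox5, Ptgs1 and Hpgds are the enzymes of lipid mediator synthesis in the set. Alox5, the 5-lipoxygenase that starts leukotriene synthesis and is also made by myeloid cells, had 81.4, 49.0, 76.9, 69.4 and 47.0 normalized counts in TDCA mice 1 to 5. Water mice 1 to 5 had 56.5, 54.9, 78.4, 56.2 and 59.0. The TDCA mice split into 3 high and 2 low ones around a tighter water group with 1 high mouse. Means were 64.7 ± 15.9 in TDCA ileum and 61.0 ± 9.85 in water ileum (SD, n = 5 each), a log2 fold change of 0.06 (95% interval −0.38 to 0.51, limma adjusted p = 0.921).

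Ptgs1, or cyclooxygenase-1, makes the prostaglandin precursor PGH2 in tuft cells and in many other cells. It had 736, 939.7, 672, 500.5 and 877 normalized counts in TDCA mice 1 to 5, and 417, 849.9, 421, 702 and 542 in water mice 1 to 5. Water 1 and water 3 were the lowest of the 10 mice, TDCA 2 was the highest, and TDCA 4 lay below water 2, water 4 and water 5. Means were 745 ± 174 in TDCA ileum and 586 ± 188 in water ileum (SD, n = 5 each), with a log2 fold change of 0.37 (95% interval −0.12 to 0.85, limma adjusted p = 0.547). Adding the smooth muscle score to the fit as a covariate gave a log2 fold change of −0.10.

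Hpgds, the hematopoietic prostaglandin D synthase, converts PGH2 to prostaglandin D2 and is also a mast cell enzyme. It had 104, 103, 97.0, 97.7 and 77.2 normalized counts in TDCA mice 1 to 5, and 82.9, 66.1, 81.6, 68.1 and 81.6 in water mice 1 to 5. The TDCA mice 1 to 4 were above every water mouse, and TDCA 5 was below 3 of them. Means were 95.8 ± 10.9 in TDCA ileum and 76.1 ± 8.21 in water ileum (SD, n = 5 each). The fold change was 1.25, with a 95% interval of 0.998 to 1.58. Across all genes this did not pass (limma adjusted p = 0.460), and an exact permutation test of Hpgds alone, not adjusted for the 10 genes looked at, gave p = 0.0317. The log2 fold change of 0.33 was 0.28 to 0.40 when any 1 mouse was left out, and 0.49 after adding the smooth muscle score to the fit.

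Mast cell markers were read beside Hpgds. The summed level of the 10 fixed mast cell genes was 798 to 1533 normalized counts in TDCA libraries and 551 to 974 in water libraries. Of the TDCA libraries, TDCA 5 had the highest sum (1533) with Hpgds at 77.2, and TDCA 3 the lowest (798) with Hpgds at 97.0. Of the water libraries, water 2 had the highest sum (974) with Hpgds at 66.1, and water 1 the lowest (551) with Hpgds at 82.9. Most of the sum was Kit, the stem cell factor receptor, which interstitial cells of Cajal in gut muscle also make. Kit averaged 1026 ± 285 in TDCA ileum and 716 ± 156 in water ileum (SD, n = 5 each; log2 fold change 0.51, limma adjusted p = 0.448), and its log2 fold change was 0.15 with the smooth muscle score in the fit. Gata2, a transcription factor of mast cells and of other blood cells, averaged 20.8 ± 7.61 in TDCA ileum and 11.2 ± 4.68 in water ileum (SD, n = 5 each; log2 fold change 0.86, limma adjusted p = 0.450). Kit and Gata2, the 2 mast cell genes abundant enough to test, were both higher in TDCA ileum at an unadjusted p under 0.05. Of all 17507 genes tested, 5.95% were higher in TDCA ileum at that threshold. The other 8 genes of the list were at 10.3 normalized counts or fewer in every library. The proteases that define mast cells were too low to test: Cpa3 had 0 to 6.13 normalized counts in TDCA libraries and 0 to 4.48 in water libraries. Mcpt1 had 5.24 to 9.43 in TDCA libraries and 4.34 to 9.61 in water libraries. The part of mast cells in the Hpgds values was not tested.

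Levels of different genes were compared as normalized counts per kilobase of exon (GENCODE M21 exon union). Ptgs1 stood first with 171 ± 48.9 per kilobase (SD, n = 10), followed by Trpm5 with 27.4 ± 5.72, Gnat3 with 26.8 ± 8.60, Il17rb with 26.5 ± 5.10 and Dclk1 with 22.4 ± 3.52. Alox5, Sucnr1, Hpgds and Pou2f3 followed with means from 15.3 to 6.70 per kilobase, and Il25 was last with 1.88 ± 2.33. Only Ptgs1 and Trpm5, among neighbours in this order, had ranges that did not overlap.

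**Figure D3:**
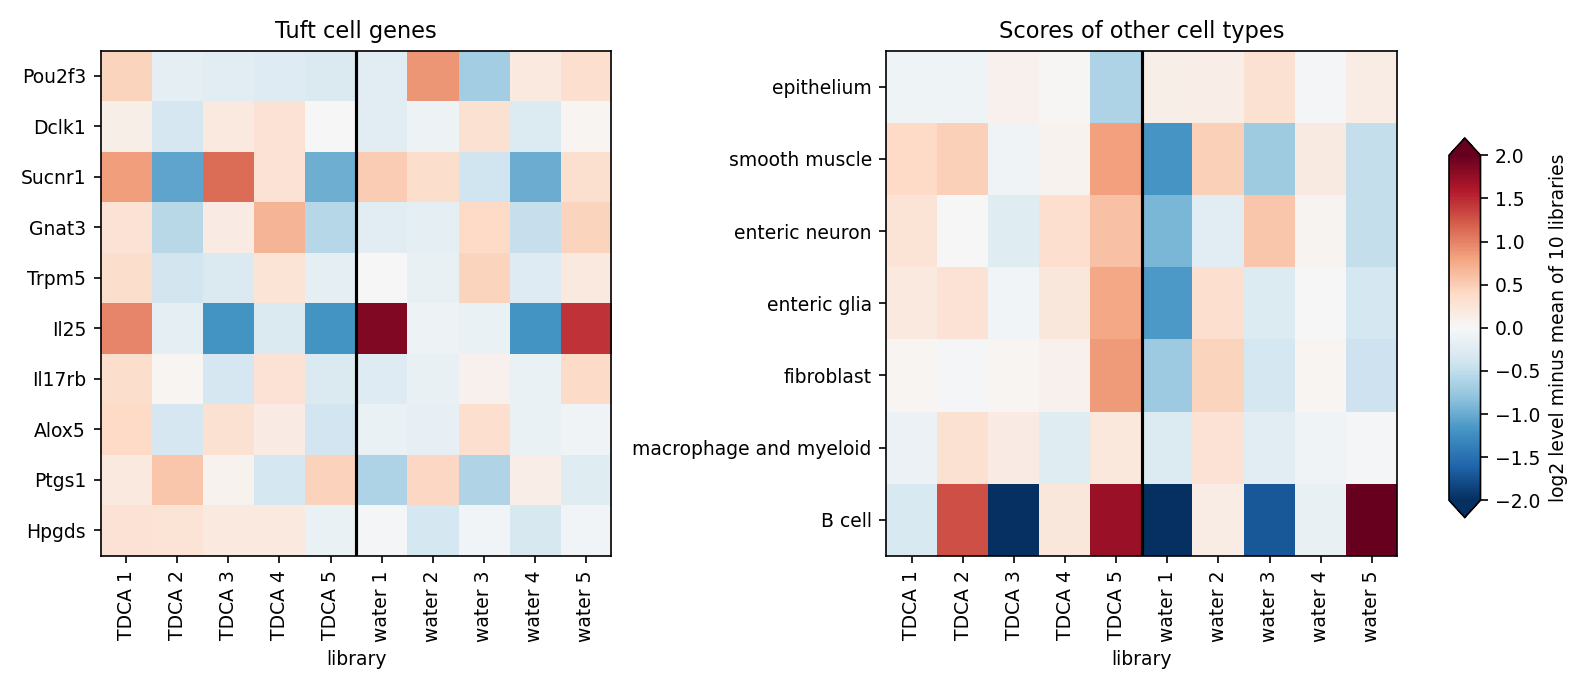
Left, log2(normalized count + 1) of the 10 tuft genes in each library, centred on the gene's mean (colours clipped at −2 and 2); right, scores of 7 other cell type lists on the same scale. TDCA libraries are left of the black line and water libraries right of it; no tuft gene separates the 2 sides, and water 1 has the lowest smooth muscle score (−1.19).

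Correlations between the tuft genes were mostly positive, but none passed adjustment. Of the 45 pairs, 31 had a positive correlation over the 10 libraries, and 9 had an unadjusted permutation p under 0.05, 8 of these positive. After Benjamini-Hochberg adjustment over the 45 pairs, 0 passed by Pearson's r and 0 by Spearman's rho. The libraries share depth and tissue make-up across all pairs. The highest correlation was between Dclk1 and Gnat3 (r = 0.835, permutation p = 0.00454, adjusted 0.139; rho = 0.770, permutation p = 0.0126, adjusted 0.228), and r was 0.735 without the 2 libraries farthest from the median of Dclk1. Gnat3 also followed Trpm5 (r = 0.806, permutation p = 0.00874, adjusted 0.139; rho = 0.721, permutation p = 0.0231, adjusted 0.260), with r = 0.813 without the 2 libraries farthest from the median of Trpm5. Its correlation with Alox5 was similar in size (r = 0.789, permutation p = 0.0116, adjusted 0.139; rho = 0.770, permutation p = 0.0128, adjusted 0.228), with r = 0.777 without 2 libraries.

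Leaving out TDCA 3 brought 3 pairs past the adjusted threshold, all with Trpm5: with Dclk1 (r = 0.884, permutation test, adjusted p = 0.0399), Alox5 (r = 0.910, permutation test, adjusted p = 0.0161) and Gnat3 (r = 0.911, permutation test, adjusted p = 0.0399). Leaving out TDCA 5 brought 1 pair past it, Dclk1 with Gnat3 (r = 0.924, permutation test, adjusted p = 0.0445). Ptgs1 ran the other way: its r was −0.652 with Trpm5 (permutation p = 0.0473, adjusted 0.223; rho = −0.576, permutation p = 0.0895, adjusted 0.336), and −0.735 without 2 libraries.

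**Figure D4:**
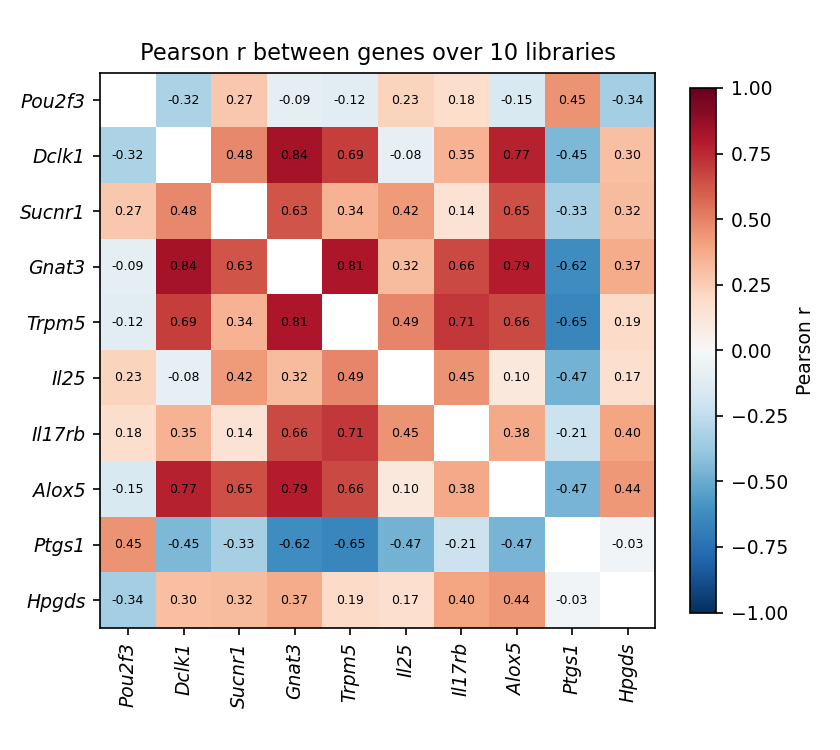
Pearson correlation between each pair of the 10 tuft genes over the 10 libraries (log2 scale, blue to red). Gnat3 with Dclk1, Trpm5 and Alox5 has the highest values (0.835, 0.806 and 0.789), and Ptgs1 is negative with Trpm5 (−0.652); no pair passed the adjusted test.

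Each of the 9 genes tested was also set against the mean of the other 8, after removing the group means, as a description over 10 libraries. Gnat3 followed the others most closely (r = 0.85). Of all genes tested, 0.851% had at least that r with a different reference, the mean of all 9 genes, Gnat3 included. Alox5 (r = 0.73) and Trpm5 (r = 0.71) came next. Pou2f3 did not follow the others (r = 0.04), and Ptgs1 ran against them (r = −0.58). Among the 35 other tuft genes tested from the fixed lists, the median r with the mean of the 9 genes was 0.38, against −0.01 for all genes tested. Siglecf (r = 0.89), a lectin found on tuft cells and eosinophils, and Sh2d7 (r = 0.84), an SH2 domain protein, were the highest of these. Gnai2 and Espn followed, each with r = 0.76. With group means removed, r with the epithelial score was 0.75 for Hpgds, 0.71 for Alox5, 0.68 for Gnat3 and 0.58 for Sucnr1. It was 0.45 for Dclk1, 0.37 for Trpm5, 0.36 for Il17rb, −0.12 for Pou2f3 and −0.49 for Ptgs1. The part of epithelial content in the shared pattern was not tested. Of the genes tested, 12135 averaged 50 normalized counts or more, leaving out the 10 tuft genes and gene models with provisional symbols. Genes of the fixed tuft lists that met this level were kept. The 10 of the 12135 with the closest pattern included Smim9 (r = 0.98) and Ifit1bl2 (r = 0.97), and 0 of the 10 were in the fixed tuft lists.

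Ptgs1 followed the smooth muscle score across mice (r = 0.907, permutation p = 2.6e-04, adjusted 0.0182 over 70 relations; rho = 0.952, permutation p = 1e-04, adjusted 0.00700). This relation was computed after the data had been seen. It was the only one of the 70 between the 10 tuft genes and 7 cell type scores to pass by either measure. These tests left the group means in. For Ptgs1 and smooth muscle, r was 0.808 without the 2 libraries farthest from the median score. Within groups (group means removed) it was 0.888, and leaving out any 1 mouse gave 0.887 to 0.960. The next highest relation of Ptgs1 was with the macrophage and myeloid score (r = 0.877, permutation p = 0.00190, adjusted 0.0665; rho = 0.867, permutation p = 0.00210, adjusted 0.0735; r = 0.807 without 2 libraries). Its r was 0.780 with enteric glia (permutation test, adjusted p = 0.0805) and 0.758 with fibroblast (permutation test, adjusted p = 0.152). It was 0.417 with B cell, 0.247 with enteric neuron and −0.615 with epithelium (permutation test, adjusted p = 0.336 for epithelium). The summed smooth muscle genes ranged from 127069 to 224571 normalized counts in TDCA libraries and from 52365 to 170626 in water libraries. Apart from the covariate fit above, the part of muscle and of other cell types in the Ptgs1 values was not tested. Within groups, Hpgds had r = −0.94 with fibroblast, −0.76 with smooth muscle, −0.76 with enteric glia and 0.75 with epithelium. With group means left in, these were −0.20, 0.02, 0.02 and −0.01. Its other within-group values were −0.52 (macrophage and myeloid), −0.35 (enteric neuron) and −0.24 (B cell). The within-group values of Hpgds were not tested.

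**Figure D5:**
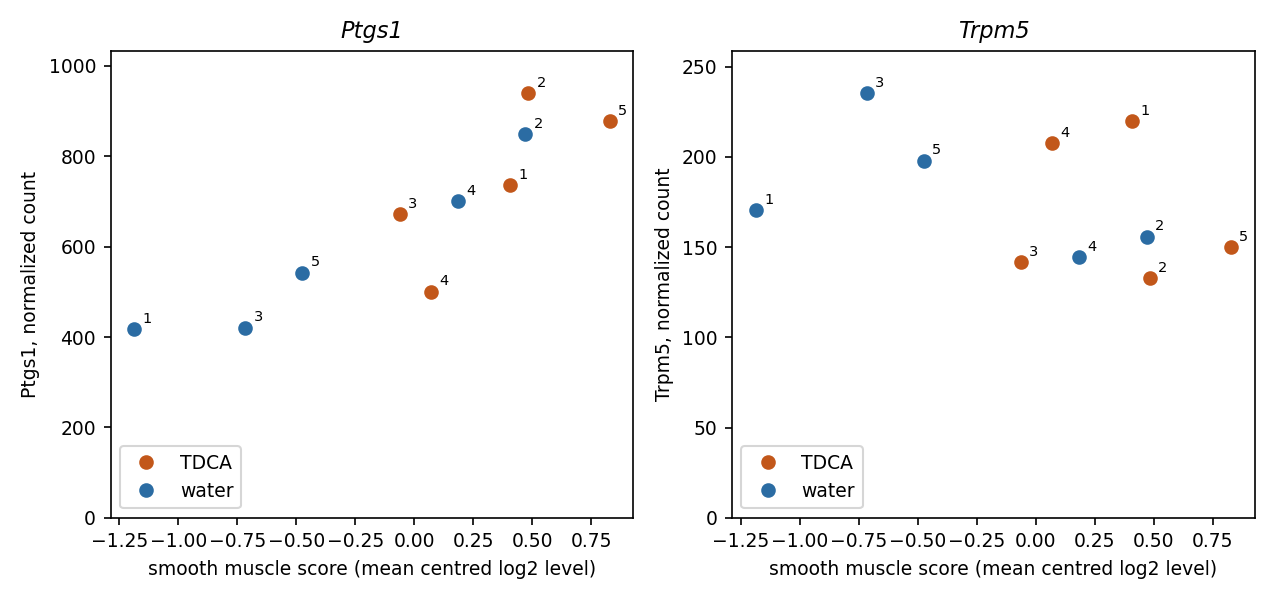
Normalized count of Ptgs1 (left) and Trpm5 (right) against the smooth muscle score of each library, TDCA and water mice marked and numbered. Ptgs1 increases along the score (r = 0.907), from water 1 at −1.19 and 417 normalized counts, and Trpm5 does not (r = −0.41).

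The other tuft cell genes were described from 4 fixed lists with 46 genes found, of which 35 were tested. Under limma 0 of the 35 passed the adjusted test and 1 passed at an unadjusted p under 0.05, higher in TDCA ileum. Of all genes tested, 5.95% passed the unadjusted threshold higher in TDCA ileum and 5.01% lower. Of the 35 fold changes 17 were positive and 18 negative, and the median log2 fold change was −0.02. Of the transcription factors, 2 of 5 were tested and 0 passed: Runx1, a Runt domain factor, had 339 ± 56.8 normalized counts in TDCA ileum and 323 ± 75.1 in water ileum (SD, n = 5 each). Spib, an Ets factor that B cells also make, had a log2 fold change of −0.21, which was 0.25 without water 5.

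Of the 13 taste transduction genes, 7 were tested and 0 passed, with a median log2 fold change of −0.04. Tas1r3, the shared subunit of the sweet and umami receptors, had 50.3 ± 7.27 normalized counts in TDCA ileum and 66.7 ± 15.0 in water ileum (SD, n = 5 each), a log2 fold change of −0.39 (limma adjusted p = 0.479). Plcb2, the phospholipase downstream of gustducin, had 127 ± 22.5 in TDCA ileum and 105 ± 47.2 in water ileum (SD, n = 5 each; log2 fold change 0.35, limma adjusted p = 0.605). Itpr3, the calcium release channel between Plcb2 and Trpm5, had a log2 fold change of 0.05. Gnai2, an inhibitory G protein subunit made by most cells, had −0.04, and the short-chain fatty acid receptor Ffar3 had −0.30, each with an adjusted p above the threshold.

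All 8 genes of eicosanoid and acetylcholine synthesis were tested and 0 passed, with a median log2 fold change of 0.11. The 1 gene with an unadjusted p under 0.05 was Pla2g4a, the cytosolic phospholipase that frees arachidonic acid for Ptgs1 and Alox5. It had 339.7 ± 44.3 normalized counts in TDCA ileum and 267 ± 45.0 in water ileum (SD, n = 5 each), a log2 fold change of 0.35 (limma adjusted p = 0.448), which was 0.16 with the smooth muscle score in the fit. Ptgs2, the inducible cyclooxygenase, had 161 ± 40.5 in TDCA ileum and 117 ± 19.8 in water ileum (SD, n = 5 each; log2 fold change 0.43, limma adjusted p = 0.460). On the leukotriene side, Ltc4s, the leukotriene C4 synthase, had a log2 fold change of −0.36 and Lta4h, the leukotriene A4 hydrolase, −0.21.

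Of 20 genes of tuft cell structure and signalling, 18 were tested and 0 passed, with a median log2 fold change of −0.03. Ptpn6, a tyrosine phosphatase of tuft and blood cells, had 508 ± 58.0 normalized counts in TDCA ileum and 679.9 ± 231 in water ileum (SD, n = 5 each), a log2 fold change of −0.37 (limma adjusted p = 0.490). Without water 5 the log2 fold change of Ptpn6 was −0.19. Kctd12 had a log2 fold change of 0.26, Nrep 0.45 and Espn, an actin-bundling protein of microvilli, −0.19. Nrep had −0.04 once the smooth muscle score was in the fit.

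Of 18 genes of the type 2 cytokine circuit, 11 were tested and 0 passed, 3 with a positive and 8 with a negative fold change (median log2 fold change −0.15). The cytokines Il4, Il5 and Il13 had at most 2.04, 2.24 and 0.857 normalized counts in any library. Gata3, the master transcription factor of group 2 lymphoid cells and of helper T cells of the same type, had 17.7 ± 5.30 normalized counts in TDCA ileum and 11.3 ± 10.3 in water ileum (SD, n = 5 each), a log2 fold change of 0.92 (limma adjusted p = 0.517). That value was 0.53 without water 3, 1.34 without water 5, 0.52 with a pseudocount of 8 and 0.60 in edgeR. Il13ra1, a subunit of the Il13 receptor, had a log2 fold change of −0.19, and Stat6, the transcription factor it activates, −0.13. Clca1, a goblet cell product that responds to Il13, had 56887 ± 13568 normalized counts in TDCA ileum and 52702 ± 14258 in water ileum (SD, n = 5 each).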

How the data were processed

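Total RNA of distal ileum was sequenced from 10 mice after ribosomal RNA depletion, per the labels' protocols. The build was GRCm39, with DESeq2 1.28.0 and MultiQC 1.9 among the tools, per the submitters' processing notes. Not given in the sources used here: aligner, counter, strand handling, annotation. The authors deposited a table of normalized counts per gene, treated here as a signal: reads divided by a size factor per library. Whole reads were recovered from their steps (100% of values within 1e-04 of a read). The authors' deposited comparison table gives, per the file headers, log2 fold changes, a test score and raw and adjusted p-values.

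Genes with at least 10 normalized counts in at least 5 of 10 libraries were tested (17507 of 42989) with limma 3.58.1 under R 4.3.3, taking log2(normalized count + 1) as the outcome and Benjamini-Hochberg adjustment over all of them. The added 1 shrinks differences at low counts, and a mean of logs can differ from the log of the means where mice vary widely. The fit was tested on simulated data. Single genes used exact permutation tests, and correlations used 100000 resamples, two-sided. Alternatives were other pseudocounts and filters, TMM scaling, scaling to epithelial genes, the smooth muscle score as a covariate, edgeR 4.0.16 and DESeq2 1.42.0 on the recovered reads, a replicate block, and leaving out mice.

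The 10 genes, the lists and the tests were chosen with earlier results of these data known. Named genes of the tuft, type 2 and mast cell lists are, per list, the 3 with the smallest p and the 2 with the highest mean among those tested. The cytokines Il4, Il5 and Il13 and the mast cell proteases, too low to test, were named after their values were seen. Of the listed names, 2 had no match in the deposited symbols. A gene with no read is limited to 3 reads, 2.57 to 3.60 normalized counts, for counting error only. The mice are biological replicates per the labels. The numbers in the sample descriptions are not stated to pair the mice. Same-numbered mice had deviations correlated by −0.15 to 0.17. These were not compared with differently numbered mice, so they cannot decide whether mice were paired. The different numbers in the sample titles were not tested for pairing.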

Additional observations from a re-analysis of the deposited data

Results flagged for a closer look

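In 20 groups of 5 libraries (10 genes, 2 treatments), a library stood far from the other 4 in 3 cases. Far means a gap to the next library above 0.71 of the group's range (Dixon's test). Chance gives about 1 in 20 for normal, independent groups, but these groups share the same 10 mice. The share over all genes tested is not given here, so 3 cases cannot be called an excess. Pou2f3 was 27.1 normalized counts in TDCA 1, the highest of the TDCA libraries, with 0.877 of the group's range between it and the next. Alox5 was 78.4 normalized counts in water 3, the highest of the water libraries, with a gap of 0.826 of the range. Hpgds was 77.2 normalized counts in TDCA 5, the lowest of the TDCA libraries, with a gap of 0.733 of the range. TDCA 5 also had the highest smooth muscle score (0.83).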

How the results depend on the processing

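The count of tuft genes called stayed at 0 under all 21 alternatives, where the smallest adjusted p was 0.283 (limma, scaled to epithelial genes). At an unadjusted p under 0.05, 1 tuft gene passed in 9 of them and 2 passed under epithelial scaling. Among all 17507 genes tested, 2854 did so under epithelial scaling, 2797 of them higher in TDCA ileum. In the 9 settings the count over all genes ran from 683 (smooth muscle covariate) to 2558 (without water 2), both of 17507 genes. With the filter raised to 50 normalized counts it was 1549 of 13193 genes, and 6 tuft genes were tested. Genes called in the whole table were 0 under each limma and edgeR setting (1919 at an unadjusted p under 0.05 in limma, 1755 in edgeR) and 25 with DESeq2 on 13800 genes. With a replicate block on the numbers in the sample descriptions limma called 0 genes (1582 unadjusted), and no call changed.

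Scaling to epithelial genes subtracts the epithelial score difference (TDCA minus water, −0.27) from every log2 fold change. It moved the median log2 fold change of all genes tested to 0.26 and that of the tuft genes to 0.33. Small negative log2 fold changes therefore turned positive by arithmetic: Trpm5 0.18, Pou2f3 0.069, Spib 0.059, Gnai2 0.23, Lta4h 0.064, Espn 0.077, Il13ra1 0.081, Stat6 0.14 and Dpp4 0.040. With the smooth muscle covariate Trpm5 was 0.058, Lta4h 0.055, Ptgs1 −0.096 and Nrep −0.044, while Pou2f3 was −0.58 and Sucnr1 0.59. Without both water 1 and TDCA 5, Lta4h was 0.0073 and Dpp4 0.0028. The cause of the shifts with the covariate and without both libraries was not tested.

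Leaving out 1 mouse at a time gave log2 fold changes of −0.19 to 0.0043 for Trpm5, −0.055 to 0.13 for Il17rb, −0.029 to 0.17 for Alox5, −0.16 to 0.15 for Gnat3 and −0.17 to 0.37 for Sucnr1. The ranges were −0.43 to 0.25 for Spib, −0.11 to 0.045 for Gnai2, −0.0070 to 0.13 for Itpr3 and −0.042 to 0.25 for Clca1. Tuft gene pairs past the adjusted threshold numbered 0 to 3. Low depth limits Il25, with 20 reads in all, and Pou2f3 and Sucnr1, with 11 to 33 and 8 to 51 reads per library.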
